A study of Mus musculus with 12 samples.

Results

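The 10 genes described here encode the enzymes of branched-chain amino acid breakdown and their regulators. They are Bcat1, Bcat2, Bckdha, Bckdhb, Dbt, Bckdk, Ppm1k, Ivd, Mccc1 and Mccc2. A gene was measured through the probesets, short groups of array probes that mostly cover part of a gene, to which the platform annotation gives that symbol and no other. All 10 were found, on 129 probesets, among 20352 genes on 212097 such probesets. The value of a gene on an array was the median over its probesets, on a log2 scale of signal, and all 10 lay above the level of the dimmest 30% of genes. The tissue was taken from hearts of 12-week-old C57BL/6J mice, 2 weeks after surgery. In the 6 infarcted hearts it was the border zone, the tissue beside a myocardial infarct, and in the 6 sham-operated hearts the matching site. The 6 samples a condition are biological replicates in the design text. The series title places the mouse hearts in a comparison with injured zebrafish hearts, which were not analysed here. No label names a genetic change or a drug.

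Leucine, isoleucine and valine are broken down in mitochondria. A transaminase (Bcat2 in mitochondria, Bcat1 in the cytosol) turns them into keto acids, and the branched-chain keto acid dehydrogenase complex then commits these to oxidation. The complex is shut off when the kinase encoded by Bckdk phosphorylates it and turned on when the phosphatase encoded by Ppm1k removes the phosphate. Ivd and the carboxylase made of the Mccc1 and Mccc2 subunits act further down the leucine branch. The heart is known as a tissue that oxidizes these amino acids and their keto acids.

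Array medians over all probesets reached at most 7.03 in sham and lay between 7.04 and 7.06 in infarcted samples. Over all genes, 20.3% differed between the groups (limma, adjusted p under 0.05), 2074 lower and 2050 higher in infarcted tissue, and 3081 lower and 1721 higher when each array was centred on its median. Cardiomyocyte markers were bright, with a list mean of 12.95 to 12.99 in sham and 12.86 to 12.96 in infarcted samples, and of 16 markers none passed the threshold (4 had an unadjusted p under 0.05, all lower). Of 12 fibroblast and 12 macrophage and monocyte markers all were higher. Fibroblast markers had a list mean of 9.08 to 9.44 in sham and 10.63 to 11.01 in infarcted samples, and macrophage markers 7.61 to 7.87 and 8.44 to 8.97. Of 10 endothelial markers none passed (2 had an unadjusted p under 0.05, both higher), and of 8 smooth muscle and pericyte markers 5 were higher. Of 7 neutrophil markers 6 and of 8 lymphocyte markers 4 lay at the dim level in sham samples. In bulk tissue, fewer cells of a type and less RNA per cell cannot be told apart. Infarcted replicate 5 had the highest adipocyte marker level (7.99, the other infarcted samples up to 6.96) and the highest skeletal muscle marker level (7.26, the other infarcted samples up to 6.37, sham samples up to 6.64), and infarcted replicates 4 and 5 had the highest atrial marker levels (8.72 and 8.25).

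Of the 10 genes, 9 were lower in the infarct border zone and 1, Bcat1, was higher. Over all genes 10.2% were lower and 10.1% higher by the same test. The 9 genes that fell had signals 23.5% to 47.2% below those of sham tissue, and in each of them all 6 infarcted samples lay below all 6 sham samples. Over all genes the groups did not overlap in 11.3%, with infarcted samples below in 5.29% and above in 5.97%. The median difference over the 10 genes was -0.74 on the log2 scale, against -0.04 over all genes. Each of the 9 was bright in sham hearts, between the 88.5th and the 97.5th percentile of all genes, while Bcat1 lay at the 43.5th percentile.

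**Figure D1:**
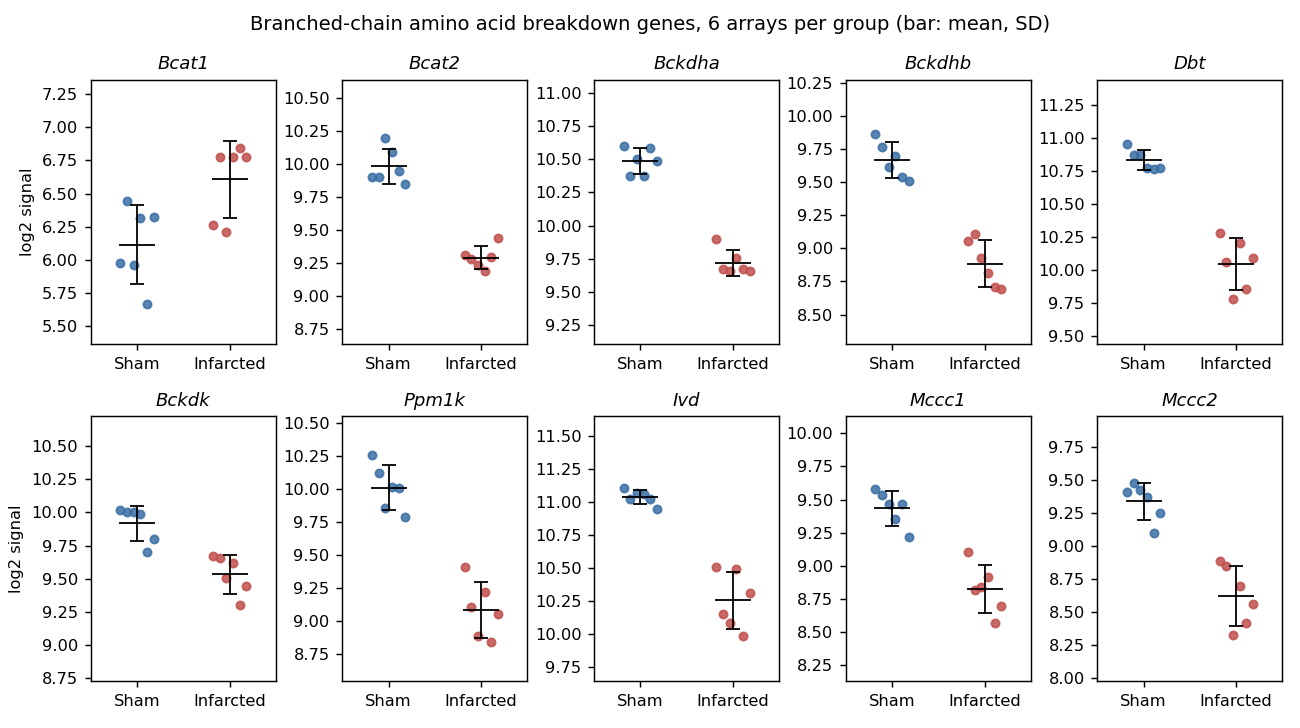
Log2 signal (y axis, each panel spanning the same range) of the 10 genes in the 6 sham and 6 infarcted samples, 1 point per array, with mean and SD as bars. Sham and infarcted points overlap for Bcat1 and for none of the other genes.

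The transaminases moved in opposite directions. Bcat2, the mitochondrial form, ranged from 9.85 to 10.19 (median 9.93) in sham samples and from 9.19 to 9.44 (median 9.29) in infarcted samples. Its difference was -0.69 (SE 0.07, limma adjusted p = 1.73e-05), a signal 38.0% lower (95% interval 30.8% to 44.5%). The mean over its probesets gave a difference of -0.58, and its single probesets ran from -0.71 to -0.43. Bcat1, the cytosolic form, ranged from 5.66 to 6.45 (median 6.14) in sham and from 6.21 to 6.84 (median 6.78) in infarcted samples. Of the 6 infarcted samples, 4 lay above every sham sample and the other two within the sham range. The difference of 0.49 (SE 0.15, limma adjusted p = 0.032) corresponds to 1.41-fold (95% interval 1.13 to 1.76). The call for Bcat1 ended when sham replicate 1, 3 or 5 or infarcted replicate 2, 4, 5 or 6 was left out (adjusted p from 0.0616 to 0.0721), under quantile normalization (0.45, adjusted p = 0.0565) and without infarcted replicates 4 and 5 (0.39, adjusted p = 0.15). On every array the value of Bcat1 minus that of Bcat2 was taken. This value lay between -4.28 and -3.46 in sham and between -3.05 and -2.41 in infarcted samples, without overlap. The changes of the transaminases thus differed by 1.18 (SE 0.18, exact permutation test, two-sided, p = 0.00216, adjusted p = 0.00541 over 5 pairs of genes). With 6 samples a group, 0.00216 is the smallest p this test can give.

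Transcripts of the dehydrogenase complex were lower in all 3 of its own subunit genes. Bckdha and Bckdhb encode the alpha and beta subunits of its decarboxylase, and Dbt encodes the acyltransferase core. Bckdha ranged from 10.37 to 10.60 (median 10.49) in sham and from 9.65 to 9.90 (median 9.67) in infarcted samples, a difference of -0.77 (SE 0.07, limma adjusted p = 3.56e-06) and a signal 41.4% lower (95% interval 34.9% to 47.2%). Bckdhb ranged from 9.51 to 9.86 (median 9.66) in sham and from 8.69 to 9.11 (median 8.87) in infarcted samples, a difference of -0.78 (SE 0.09, limma adjusted p = 3.76e-05). For both subunits every infarcted sample lay below every sham sample. The value of Bckdha minus Bckdhb did not differ between groups beyond its spread, with a difference in change of 0.01 (SE 0.10, exact permutation test, p = 0.922, adjusted p = 0.922). Dbt ranged from 10.76 to 10.95 (median 10.82) in sham and from 9.78 to 10.28 (median 10.07) in infarcted samples. Its difference was -0.79 (SE 0.09, limma adjusted p = 2.41e-05), and its infarcted samples were spread more widely (SD 0.19) than its sham samples (SD 0.08). With dim probesets left out the difference of Dbt was -0.68. Dld, the dihydrolipoamide dehydrogenase that this complex shares with the pyruvate and oxoglutarate dehydrogenases, fell by 0.58 (SE 0.12, limma adjusted p = 0.0034), and its groups overlapped.

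The regulators of the complex also fell, and by different amounts. Ppm1k, the activating phosphatase, had the largest fall of the 10 genes. It ranged from 9.79 to 10.26 (median 10.01) in sham and from 8.84 to 9.41 (median 9.08) in infarcted samples. The difference was -0.92 (SE 0.11, limma adjusted p = 3.14e-05), a signal 47.2% lower (95% interval 38.2% to 54.9%). By its difference it ranked as number 38 from the lowest of all 20352 genes. Bckdk, the inhibitory kinase, had the smallest fall of the 9. It ranged from 9.70 to 10.02 (median 9.99) in sham and from 9.30 to 9.67 (median 9.56) in infarcted samples, a difference of -0.39 (SE 0.09, limma adjusted p = 0.00511) and a signal 23.5% lower (95% interval 13.2% to 32.5%). The highest infarcted and the lowest sham sample of Bckdk lay close together.

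The value of Bckdk minus Ppm1k was higher in all 6 infarcted samples (0.26 to 0.62) than in any sham sample (-0.30 to 0.14). The kinase and phosphatase transcripts therefore changed unequally, by 0.54 (SE 0.09, exact permutation test, p = 0.00216, adjusted p = 0.00541). The value of Bckdk minus Bckdha, its substrate subunit, ran from -0.88 to -0.37 in sham and from -0.37 to -0.01 in infarcted samples, with an overlap of 1 sample of each group at the edge. The difference in change was 0.38 (SE 0.09, exact permutation test, p = 0.00433, adjusted p = 0.00722). These values describe transcripts, and phosphorylation of the complex was not measured.

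**Figure D2:**
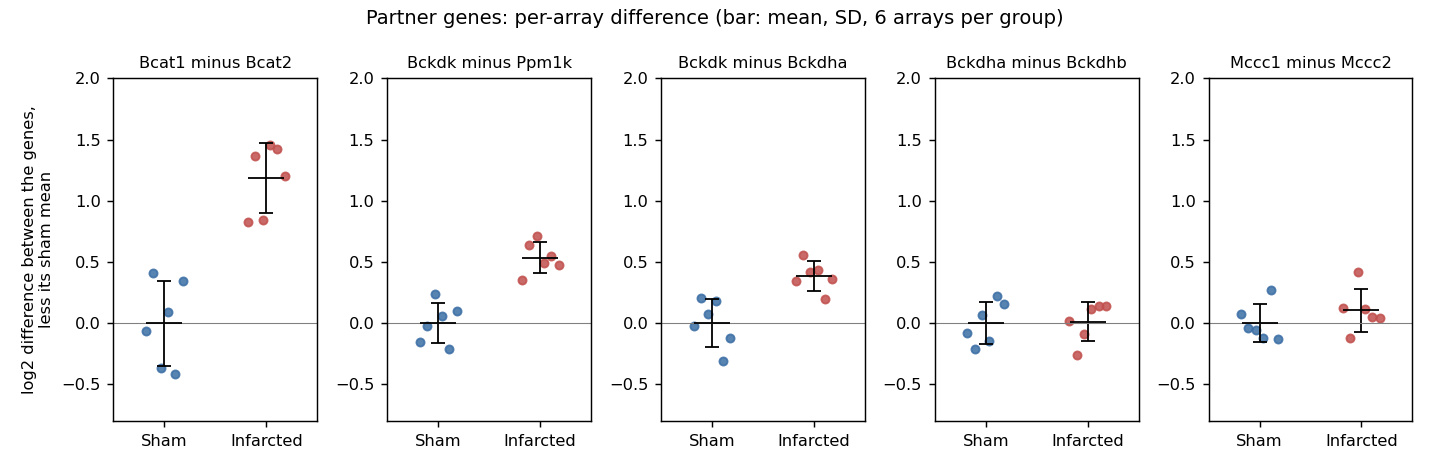
Per-array log2 difference between partner genes, less its mean over the sham samples (y axis), for 5 pairs in 6 sham and 6 infarcted samples, with mean and SD as bars. The infarcted points of Bcat1 minus Bcat2 and Bckdk minus Ppm1k lie above all sham points, and those of Bckdha minus Bckdhb and Mccc1 minus Mccc2 are mixed with them.

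The enzymes of the leucine branch were lower as well. Ivd, isovaleryl-CoA dehydrogenase, had the tightest sham values of the 10 genes, from 10.94 to 11.11 (median 11.04, SD 0.05), against 9.99 to 10.51 (median 10.23, SD 0.22) in infarcted samples. Its difference was -0.78 (SE 0.09, limma adjusted p = 3.78e-05). Mccc1, the biotin-carrying subunit of methylcrotonyl-CoA carboxylase, ranged from 9.21 to 9.58 (median 9.46) in sham and from 8.57 to 9.11 (median 8.83) in infarcted samples, a difference of -0.61 (SE 0.09, limma adjusted p = 0.00035). Mccc2, the partner subunit, ranged from 9.10 to 9.47 (median 9.39) in sham and from 8.33 to 8.89 (median 8.63) in infarcted samples, a difference of -0.72 (SE 0.10, limma adjusted p = 0.000251). The changes of Mccc1 and Mccc2 differed by 0.10 (SE 0.10, exact permutation test, p = 0.316, adjusted p = 0.395), within the spread of the samples.

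Samples differed in how far the 9 genes had fallen. The median deviation of the 9 genes from their sham means was -0.92 in infarcted replicate 5, which was the lowest infarcted sample for 4 of them, and -0.83 in replicate 3. It was -0.55 in infarcted replicate 1, the highest infarcted sample for 7 of them, and between -0.74 and -0.64 in replicates 2, 4 and 6. Sham samples lay between -0.12 and 0.12. Infarcted replicates 3 and 5 also had the highest macrophage marker levels (8.97 and 8.81) and the lowest respiratory chain levels (11.08 and 11.13), and replicate 5 the lowest cardiomyocyte marker level (12.86). Fibroblast marker levels were instead highest in infarcted replicates 3 (11.01) and 6 (10.83), with 10.80 in replicate 5. Endothelial marker levels were also highest in replicates 3 (9.99) and 6 (9.96). The part of these values in the fall was not tested. Without infarcted replicates 4 and 5 all 9 genes were still lower by limma, and likewise with any 1 sample left out.

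Single probesets mostly gave the same direction for the 9 genes. Of their 116 probesets, 115 had a difference below 0 and 102 passed the threshold as lower (limma over all probesets, of which 10.7% passed and 4.3% were lower), while none passed as higher. All probesets of Bcat2, Bckdha, Bckdhb and Ppm1k passed, with differences for Ppm1k from -1.07 to -0.74. Bckdk had the lowest share, 8 of 14. For Bcat1, 4 of 13 probesets passed as higher, against 6.39% of all probesets, and its differences ran from -0.41 to 1.18, with 3 below 0. The number was 2 without sham replicate 1, 2, 3, 5 or 6 or infarcted replicate 2, 4, 5 or 6, and 0 without infarcted replicates 4 and 5 together. Unequal change of the probesets within a gene was called in 960 of 15004 genes (6.4%, exact permutation test, adjusted over genes) and in 0 of the 10, of which 5 had an unadjusted p under 0.05. The adjusted p was 0.09 for Bcat1 and at its smallest 0.0513, for Bckdha and Mccc2.

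**Figure D3:**
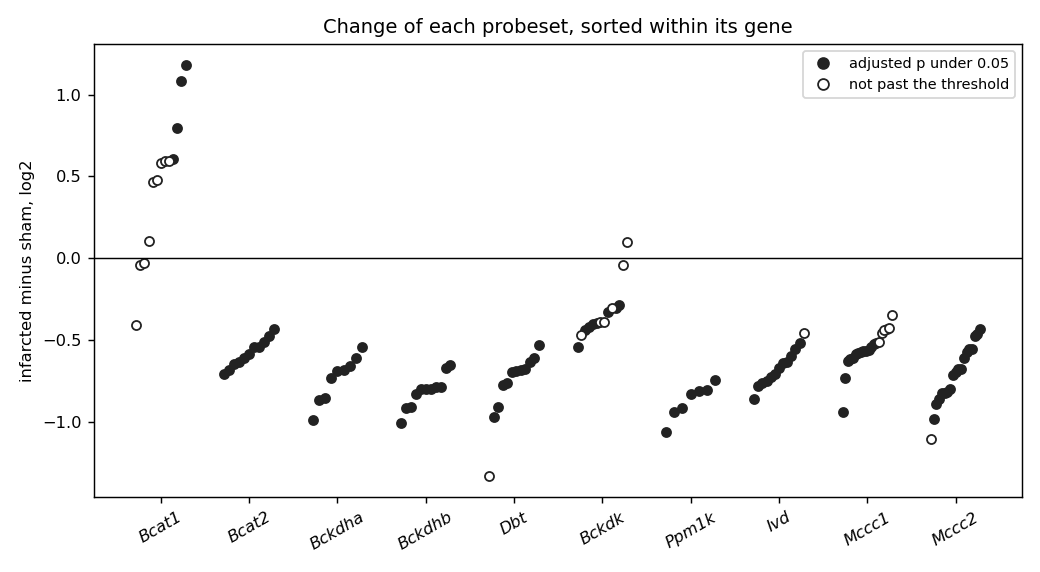
Infarcted minus sham difference (y axis, log2) of each probeset of the 10 genes, sorted within its gene, filled where the adjusted p is under 0.05. All but 1 of the 116 probesets of the 9 genes other than Bcat1 lie below 0, and those of Bcat1 spread from -0.41 to 1.18.

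Genes of mitochondrial energy use were lower in the same tissue, so the 10 genes were also compared with respiratory chain genes. Of 40 respiratory chain genes, 31 were lower and none higher, with a median of -0.30. The complex I subunit genes Ndufb3, Ndufs3 and Ndufa5 fell by 0.47, 0.43 and 0.52. Of 15 TCA cycle genes 12 were lower and none higher (median -0.33), among them Sdha (-0.45), Fh1 (-0.41) and Suclg2 (-0.60). Of 19 genes of fatty acid oxidation 17 were lower and none higher (median -0.44), among them Etfa (-0.67), a subunit of the flavoprotein that takes electrons from Ivd, Cpt2 (-0.57) and Acot2 (-0.57). Of 14 genes of mitochondrial import and structure 8 were lower and none higher (median -0.23), among them Hspa9 (-0.29), Immt (-0.31) and Phb2 (-0.23). On each array the median of the 40 respiratory chain genes was subtracted from every gene and the fit repeated. That median was 0.30 lower in infarcted samples, so this fit raises the difference of every gene by that amount, and it called 47.3% of all genes, 1.67% lower and 45.6% higher. In it, 8 of the 10 genes were lower and Bcat1 was higher. Other lists also held genes lower in this fit. Of the 19 genes of fatty acid oxidation 7 were lower and 1 was higher. Of 9 genes listed for the valine and isoleucine branches 5 were lower, and of 7 of propionyl-CoA use 4, with none higher in these lists. Relative to the respiratory chain median, Ppm1k differed by -0.62 (SE 0.09, limma adjusted p = 0.00014), Dbt by -0.49 (SE 0.07, limma adjusted p = 0.000175) and Bckdha by -0.47 (SE 0.08, limma adjusted p = 0.000303). Bckdk differed by -0.09 (95% interval -0.26 to 0.08, limma adjusted p = 0.353). With the median of 16 cardiomyocyte markers subtracted in its place, which itself differed by -0.04 between groups, 9 of the 10 were lower, Bckdk among them (-0.34, adjusted p = 0.0086), and Bcat1 was higher (0.54, adjusted p = 0.0282). That fit called 18.5% of all genes, 7.0% lower and 11.5% higher.

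**Figure D4:**
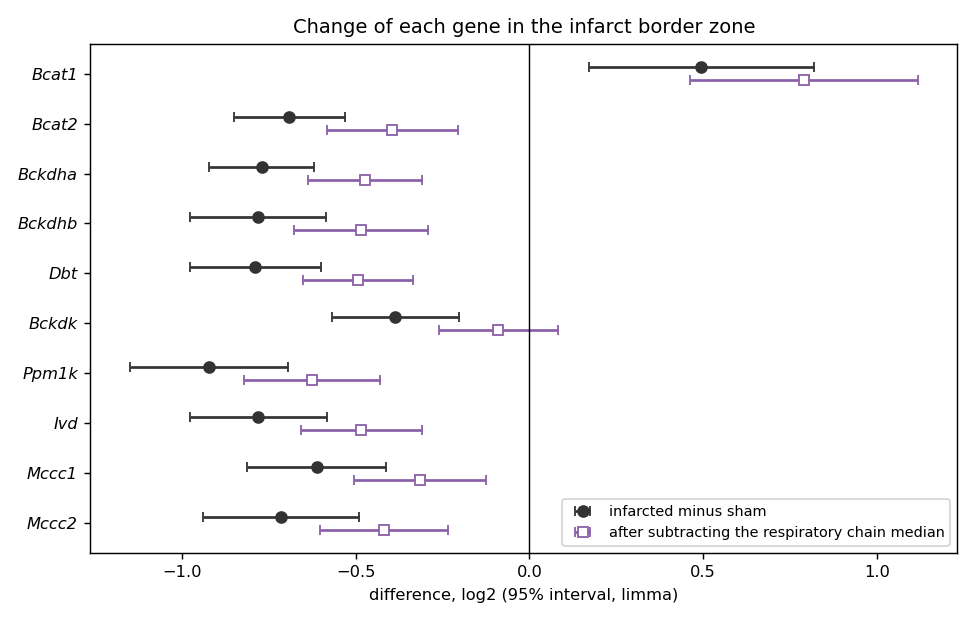
Difference between infarcted and sham samples (x axis, log2, with 95% intervals from limma) for the 10 genes, as measured (filled circles) and after the respiratory chain median of each array was subtracted (open squares). Bckdk is the gene whose interval reaches 0 after the subtraction.

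Further genes of the pathway were taken from 9 lists with 64 measured genes, of which 37 were lower, 3 higher and 24 not past the threshold (median difference -0.32). In the list for the valine and isoleucine branches all 9 genes fell. Echs1, the short-chain enoyl-CoA hydratase, fell by 0.47 (SE 0.07, limma adjusted p = 0.000266), and Hadha and Hsd17b10, also in this list, fell by 0.48 and 0.44. Of 7 genes of propionyl-CoA use, into which isoleucine and valine carbon flows, 5 fell. Pcca and Pccb, the subunits of propionyl-CoA carboxylase, fell by 0.65 and 0.58, and Mmut, methylmalonyl-CoA mutase, by 0.57. For the last steps of leucine breakdown and the use of its ketone product, all 3 measured genes fell. They were Auh (-0.60), which hydrates the product of the carboxylase, Acat1 (-0.39) and Oxct1 (-0.30).

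Amino acid transporters gave other counts than the enzymes. Of 7 transporter genes, none was lower (1 had an unadjusted p under 0.05 in that direction) and Slc7a5 and Slc7a6, light chains of amino acid exchangers of the plasma membrane, rose by 0.34 and 0.41. Their groups overlapped, and the call for Slc7a6 ended without sham replicate 1 or 5 or infarcted replicate 1, 2 or 3 (adjusted p up to 0.0702) and that for Slc7a5 without infarcted replicates 4 and 5 (adjusted p = 0.0652). Slc25a44, a mitochondrial carrier of branched-chain amino acids, differed by -0.20 (limma adjusted p = 0.0604) and passed as lower in 7 of 20 other settings. Of 8 genes of leucine sensing and mTOR complex signalling, Sesn1, a sestrin, fell by 0.54 and the other 7 did not pass.

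The sister complexes and their kinases moved less evenly. Of 8 subunits of the related dehydrogenases and their shared component Dld, 7 fell, led by Dhtkd1 (-0.64) of the oxoadipate dehydrogenase, with Pdha1 of pyruvate dehydrogenase at -0.30. Among 7 genes of the kinases and phosphatases of pyruvate dehydrogenase, 5 fell and 1 rose. Pdk2 and Pdpr fell by 0.46 and 0.47, and Pdk3 rose by 0.87 (SE 0.10, limma adjusted p = 3.14e-05). Of 6 genes of biotin enzymes and biotin supply, Acacb (-0.56) and Pcx (-0.61), which carry biotin as Mccc1 does, fell.

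Of 9 transcriptional regulators linked to mitochondrial oxidation, 5 fell and none rose. Esrrb (-0.36), Esrra (-0.34) and Esrrg (-0.41), the estrogen-related receptors, were among them. The call for Esrra ended without sham replicate 4 or 6 or infarcted replicate 3 or 5 (adjusted p up to 0.0569), that for Esrrg without sham replicate 1 or 4 or infarcted replicate 3, 5 or 6 (adjusted p up to 0.0726), and both without infarcted replicates 4 and 5 together. Klf15, a cardiac regulator known to act on branched-chain amino acid catabolism, differed by -0.27 (SE 0.11, limma adjusted p = 0.0826). It passed as lower in 4 of 20 other settings, which were averaged probesets (-0.68, adjusted p = 0.000152), centred arrays (adjusted p = 0.0367), and sham replicate 3 (adjusted p = 0.0471) or infarcted replicate 4 (adjusted p = 0.0266) left out.

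**Figure D5:**
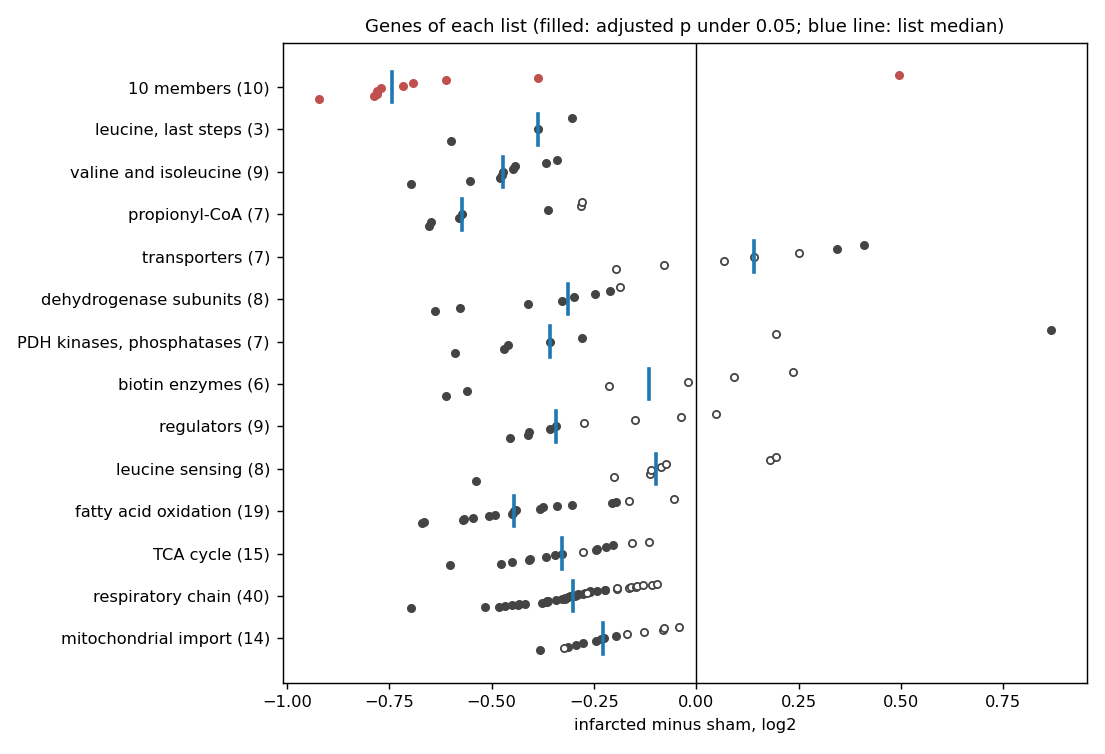
Infarcted minus sham difference (x axis, log2) of single genes in the 10 members and 13 other lists (y axis, number of measured genes in parentheses), filled where the adjusted p is under 0.05, with the list median as a blue line. The median of the members is -0.74 and those of the other lists lie between -0.57 and 0.14.

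RefSeq promoter windows (GRCm38.p6, 250 bases before to 50 after a start site) were found for 9 of the 10 genes, 12 windows in all. They were searched on both strands for AAGGTCA (half-site of the estrogen-related receptors), CCACCC (a box of KLF factors), GCATGCG (core of the NRF1 site), GGGCGG (GC box), CCAAT and CACGTG (E-box). CCAAT was in windows of 7 of the 9 genes (8 of the 12 windows), against 37.4% of all 32851 windows. CCACCC was in 4 windows (31.5% of all windows), GGGCGG in 3 (35.7%) and CACGTG in 1 (7.15%), and AAGGTCA (4.72%) and GCATGCG (3.58%) were in none. The last 150 bases before the start site are given for the kinase and phosphatase genes, whose changes differed, and for Ivd and Mccc2, which hold several CCAAT matches each (Mccc1, with as many as Mccc2, is not shown). Each runs 5′ to 3′ on the strand of the gene, with CCAAT or its reverse complement in capitals.
Bckdk, chr7:127903923-127904072, plus strand: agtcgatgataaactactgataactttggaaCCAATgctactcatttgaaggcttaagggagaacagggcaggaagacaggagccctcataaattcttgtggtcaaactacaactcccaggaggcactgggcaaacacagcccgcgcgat
Ppm1k, chr6:57535488-57535637, minus strand: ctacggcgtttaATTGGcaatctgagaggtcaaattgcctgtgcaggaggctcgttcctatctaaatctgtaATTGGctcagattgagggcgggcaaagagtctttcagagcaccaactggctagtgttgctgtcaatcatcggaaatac
Mccc2, chr13:100015640-100015789, minus strand: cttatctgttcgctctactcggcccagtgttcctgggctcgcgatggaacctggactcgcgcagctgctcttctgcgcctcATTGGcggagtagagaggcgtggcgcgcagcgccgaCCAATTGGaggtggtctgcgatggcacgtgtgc
Ivd, chr2:118861844-118861993, plus strand: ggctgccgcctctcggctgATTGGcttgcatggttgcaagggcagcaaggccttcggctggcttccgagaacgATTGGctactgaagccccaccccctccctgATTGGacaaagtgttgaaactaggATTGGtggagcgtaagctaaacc
The stretch of Bckdk held 1 match, that of Ppm1k 2, that of Mccc2 3, of which 2 overlap, and that of Ivd 4. Of all windows, 1.06% held 4 or more. A match is a description of the letters, and binding was not measured.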

How the data were processed

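RNA of 6 infarcted and 6 sham samples was measured on 12 one-colour arrays. Per the labels' protocols, Trizol RNA was made into biotin-labelled cDNA with a whole-transcript kit. The deposited log2 values, 1 per probeset, come from Affymetrix Power Tools, per the submitters' processing notes. Version, summary method and normalization were not given in the sources used here. Their log base was read from the range (1.52 to 14.37). Array values were already nearly equal, so a shift of all genes would not be seen. Signals may include background, which was not measured here. Whether changes of dim genes or of the brightest genes are understated was not tested. In sham samples the medians used as reference were 11.78 to 11.85 (respiratory chain) and 12.97 to 13.09 (cardiomyocyte markers). The sham means of the 9 genes that fell lay lower, from 9.34 (Mccc2) to 11.04 (Ivd). The number of arrays limits the precision, and no label gives a batch.

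Symbols were updated through RefSeq (GRCm38.p6) synonyms, except for members. Gene values were fitted with limma 3.58.1 in R 4.3.3 (lmFit, eBayes, two-sided, Benjamini-Hochberg over 20352 genes or 241576 probesets). Partner genes were compared by exact permutation over 924 splits of the arrays. The probeset test within genes used 462 splits. It was chosen after seeing the data, in place of limma's diffSplice, which in simulated data called too many unchanged genes. Members and lists were chosen with earlier results of these data known. Named were all members, Klf15, Dld and Slc25a44, and from each other list up to 3 genes that passed, by lowest p, and the first in the opposite direction. Marker lists are given by counts and levels. The main fits did not pair samples by replicate number, since no label ties the numbers across groups. Correlations of same-numbered deviations ran from -0.05 to 0.10, which does not settle whether samples were paired. Figures were drawn with matplotlib 3.10.9.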

Additional observations from a re-analysis of the deposited data

Results flagged for a closer look

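In 3 of the 80 groups of 6 values examined, the lowest or highest sample stood apart, the gap to the nearest sample exceeding Dixon's 95% value, and chance gives about 1 in 20. None was a value of the 10 genes or of a pair of them. Sham replicate 6 was low for Oxct1 (11.41, nearest 11.59), infarcted replicate 1 was high for Pcca (9.56, nearest 9.34) and infarcted replicate 3 was low for Pdk2 (11.46, nearest 11.79).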

How the results depend on the processing

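The fall of 9 of the 10 genes kept its direction and its call in all 20 other settings (12 with a sample left out, the mean over probesets, 2 filters on dim signal, 2 scalings, eBayes with trend and robust, the replicate block, and infarcted replicates 4 and 5 left out). The number of genes called higher, 1, was 0 under quantile normalization and without infarcted replicates 4 and 5, and 0 to 1 with a sample left out. Relative to a reference median, 8 to 9 genes were lower and 1 higher in all 18 settings. These included TCA cycle genes and cardiomyocyte markers as the reference in place of respiratory chain genes. The count was 9 with cardiomyocyte markers, where Bckdk also passed, and 8 in the other settings. Pathway genes called lower numbered 29 to 44. Probesets called higher, 4, numbered 2 with centred arrays, 0 without infarcted replicates 4 and 5, and 2 to 4 with a sample left out. The difference in change of Bckdha and Bckdhb, 0.01, was -0.0497 without infarcted replicates 4 and 5 and -0.0327 to 0.064 with a sample left out, never past the threshold. The replicate block, tested by flipping the signs of 6 numbered differences, left Bcat1 minus Bcat2 (1.18), Bckdk minus Ppm1k (0.54) and Bckdk minus Bckdha (0.38) at an adjusted p of 0.0521, where the smallest unadjusted p it can give is 0.0313. The replicate block in limma ended 1 call named here, that of Esrra (adjusted p = 0.0592). Of 6 pairs of same-numbered samples, 2 correlated best with each other. Other alternatives moved no pair of genes across the threshold. With all probesets kept, unequal change was again called in 0 of the 10 genes (4 at an unadjusted p under 0.05, smallest adjusted p 0.0577). Low signal limits Bcat1, of whose 13 probesets 2 lay under the dim level of 5.58.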
